A study of Mus musculus with 60 samples.

Results

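The 6 functional joining segments of the second TCR beta cluster, TRBJ2-1, TRBJ2-2, TRBJ2-3, TRBJ2-4, TRBJ2-5 and TRBJ2-7, were followed in TCR-CDR3 sequences from CD4 and CD8 T cells of the donor. The members are all clonotypes whose J call was one of these 6 of the 12 TRBJ segments listed, with no choice by level. A clonotype is a CDR3 sequence listed with a single set of V, D and J calls and bases for all libraries. The CDR3 is the loop encoded where V, D and J meet. The deposited tables are named as joined by amino acids. Whether each library held the listed calls and bases could therefore not be checked. TRBJ2 clonotypes numbered 54299 of 85775 in the CD4 table and 55166 of 82447 in the CD8 table. Usage is the summed frequency of a segment's clonotypes divided by the summed frequency of all clonotypes listed for that library, in percent.

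The donors were C57BL/6 mice that were wild type (WT), STAT3ko (Stat3 fl/fl with CD4-Cre, which deletes the gene in cells of the T lineage that express the Cre) or STAT3koPD-1ko (the same, on a PD-1-/- background). Lethally irradiated WT BALB/c recipients, whose major histocompatibility complex differs from the donors', received the donor cells with T cell-depleted WT marrow. In such an allogeneic hematopoietic cell transplantation (HCT), donor T cells that recognise the recipient can cause graft-versus-host disease. Each table held 12 libraries from day 6, with 2 from liver and 2 from gut for every genotype, each from lymphocytes pooled over 3 recipients. Every genotype also had 1 library made before HCT, from spleen. Cells were sorted on the donor molecule H-2Kb, on TCRβ and on CD4 or CD8, and the TCR tables hold no other genes with which to check the sort. Nothing in the labels says that the replicate numbers mark separate donor preparations, so the tests measure the spread between these libraries. The study's methods mention 2 batches, which neither they nor the labels tie to the replicate numbers, so no within-batch values could be given. RNA was sequenced, so a share of cells and a share of transcripts per cell cannot be told apart.

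A beta chain gene is made in the thymus by joining a D to a J segment and then a V to the DJ unit. The locus has 2 D-J-C clusters in a row, and because TRBD2 lies behind the TRBJ1 cluster, joining by deletion can link TRBD1 to either J cluster but TRBD2 only to TRBJ2. The J segment encodes the end of the CDR3 and the framework strand after it, so usage reflects the rearrangements made and the receptors later kept or expanded.

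The germline TRBJ2 segments are shown because their 5′ ends are what distinguishes the clonotypes described here. They are from GENCODE M21 (GRCm38, the mm10 build named in the labels), all on the plus strand of chromosome 6, and the capitals mark the codons of the Phe-Gly-X-Gly motif, whose first codon closes the CDR3.
TRBJ2-1 (chr6:41542754-41542803): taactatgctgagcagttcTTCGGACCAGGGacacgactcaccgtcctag
TRBJ2-2 (chr6:41542957-41543007): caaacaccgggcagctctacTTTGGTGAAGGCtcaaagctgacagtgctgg
TRBJ2-3 (chr6:41543223-41543271): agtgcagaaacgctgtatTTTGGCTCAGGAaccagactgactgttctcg
TRBJ2-4 (chr6:41543362-41543410): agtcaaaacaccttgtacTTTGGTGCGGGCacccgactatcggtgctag
TRBJ2-5 (chr6:41543453-41543501): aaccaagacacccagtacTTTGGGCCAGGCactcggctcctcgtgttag
TRBJ2-7 (chr6:41543810-41543856): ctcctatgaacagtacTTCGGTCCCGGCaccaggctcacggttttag
TRBJ2-7 is the shortest, with 19 bases that can enter the CDR3, against 21 to 23 for the others. TRBD2 lies upstream of the cluster at chr6:41542163-41542176 and TRBC2, the constant gene that these segments splice to, downstream at chr6:41546730-41548352. TRBJ2-6, at chr6:41543598-41543645, is annotated as a pseudogene and was not among the J calls.

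The tables used hold fractions, so depth is unknown. Listed clonotypes covered from 47.8% to 97.2% of a CD4 library's reads and from 53.2% to 98.4% of a CD8 library's, lowest in the 6 gut libraries numbered 2. Libraries also shared clonotypes: with the TRBJ2 clonotypes of each library scaled to 100%, the summed smaller frequency of a library before HCT and liver replicate 1 of its genotype was 47.5% ± 7.06 (SD, n = 3) in CD4 and 46.6% ± 8.33 in CD8, against 6.65% ± 0.991 and 7.15% ± 0.788 for liver replicate 1 of another genotype (n = 6) and 7.21% ± 1.51 and 8.25% ± 0.970 for liver replicate 2 of its own. With gut replicate 1 of its genotype it was 19.5% ± 4.08 and 22.6% ± 3.53. Whether these columns of the tables match the labelled sites could not be checked from the tables, so the values of the libraries before HCT and of liver replicate 1 are given as labelled. Gut replicate 1 shared 28.4% ± 8.22 with liver replicate 1 and 26.8% ± 3.22 with liver replicate 2 of its genotype in CD4, against 9.01% ± 0.882 and 10.3% ± 1.05 with those of another genotype (n = 6). Gut replicate 2 shared no more with its own genotype than with others beyond the spread: 7.10% ± 3.15 against 7.03% ± 2.00 with liver replicate 1, 8.48% ± 3.66 against 7.72% ± 2.22 with liver replicate 2 and 6.09% ± 2.17 against 6.14% ± 2.01 with the cells before HCT. In CD8 the pattern was the same, with 33.7% and 36.6% for gut replicate 1 and 12.4% and 14.3% for gut replicate 2. No 2 libraries of a table had frequencies correlated above 0.622 (Pearson's r), so none was treated as a duplicate. Results are therefore also given without the liver libraries numbered 1 where that changes them.

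In CD4 T cells, TRBJ2-7 was the most used member, at 17.7% ± 1.30 (SD, n = 15) of listed frequency, followed by TRBJ2-5 at 12.3% ± 1.39. TRBJ2-4 came next at 10.1% ± 0.657, then TRBJ2-3 at 9.50% ± 0.570 and TRBJ2-1 at 9.21% ± 0.723. TRBJ2-2 was lowest at 6.37% ± 0.496. TRBJ2-7 exceeded TRBJ2-5 in 15 of 15 libraries and TRBJ2-1 exceeded TRBJ2-2 in 15 of 15, while the middle of the order was loose: TRBJ2-4 exceeded TRBJ2-3 in 10 of 15 libraries and TRBJ2-3 exceeded TRBJ2-1 in 10 of 15, with mean gaps of 0.604 and 0.290 percentage points that were smaller than their SDs over libraries of 0.902 and 0.884.

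CD8 T cells had another order. TRBJ2-7 was again first at 25.7% ± 1.44 (SD, n = 15), but TRBJ2-1 was second at 15.7% ± 0.781, ahead of TRBJ2-5 at 9.02% ± 0.644. TRBJ2-3 at 7.30% ± 1.02 and TRBJ2-4 at 7.20% ± 0.747 did not differ beyond their spread, TRBJ2-3 being the higher in 6 of 15 libraries. TRBJ2-2 was last at 4.97% ± 0.379, below TRBJ2-4 in 15 of 15.

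Set side by side library by library, TRBJ2-1 and TRBJ2-7 were higher in the CD8 than in the CD4 library of the same site, genotype and number in 15 of 15 cases, by 6.50 ± 1.02 and 7.94 ± 1.43 percentage points. The other 4 members were lower in CD8 in 15 of 15 cases, by 1.39 ± 0.517 points for TRBJ2-2, 2.20 ± 1.12 for TRBJ2-3, 2.91 ± 1.14 for TRBJ2-4 and 3.29 ± 1.41 for TRBJ2-5. The summed usage of the 6 members was 65.2% ± 2.41 in CD4 and 69.9% ± 1.24 in CD8 (n = 15). The CD4 and CD8 tables were made separately, so these differences were not tested.

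**Figure D1:**
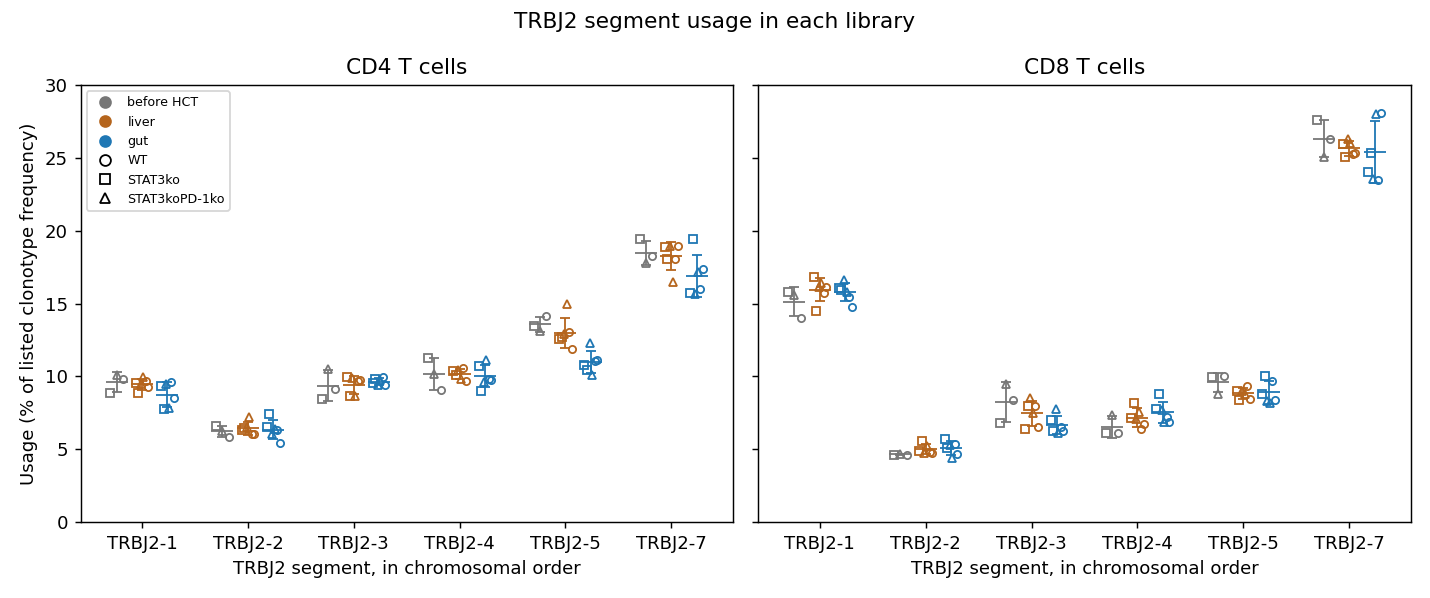
Usage of each TRBJ2 segment (y axis, percent of the listed clonotype frequency of a library) by site, in CD4 (left) and CD8 (right) T cells. Points are libraries, with the genotype as the marker, and bars are the mean and SD of 3 libraries before HCT and of 6 in liver and in gut. TRBJ2-7 was the highest in every library of both tables, and TRBJ2-5 in CD4 gut lay between 10.1% and 12.3%, below most liver libraries.

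Summed TRBJ2 usage was lower in gut than in liver in CD4 T cells. It was 66.3%, 68.0% and 68.0% in the 3 libraries before HCT. In liver the lowest, median and highest of 6 libraries were 64.9%, 67.1% and 68.2%. In gut they were 61.7%, 62.6% and 63.9%, so no gut library reached the range of liver or of the cells before HCT. With each clonotype counted once the separation from liver was lost: gut ran from 61.9% to 62.9% and liver from 62.3% to 64.9%, a difference of -1.30 points. The cells before HCT were then at 64.0%, 65.4% and 66.1%, still above gut. Among CDR3 that run from C to F or W it was lost too, STAT3ko gut replicate 2 lying above STAT3ko liver replicate 2 and WT before HCT. Such CDR3 made up 73.5% to 77.3% of TRBJ2 frequency and 67.4% to 72.5% of TRBJ1 frequency in CD4 gut. By frequency and with all CDR3 the means were 66.8% ± 1.26 in liver and 62.6% ± 0.737 in gut (SD, n = 6). The difference of -4.11 points had an exact two-sided permutation p of 0.00926, the smallest that rearranging tissue within genotype allows. Adjusted over the 10 tests of summed usage it was 0.0595, which did not pass the 0.05 threshold. Gut against the cells before HCT differed by -4.80 points, with an exact permutation p of 0.0119, again the smallest possible over 84 splits, and an adjusted p of 0.0595. With both tests at their smallest p, an adjusted p under 0.05 also needed small p in other tests of the 10. The threshold could therefore not decide these differences by themselves. Liver and the cells before HCT differed by -0.687 points (exact permutation p = 0.440), by -1.58 without the liver libraries numbered 1, and by -1.25 without WT before HCT to -0.313 without STAT3ko liver replicate 2 on leaving out a library.

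In CD8 T cells the sum was 70.4% ± 0.874 before HCT (n = 3), 70.1% ± 1.43 in liver and 69.4% ± 1.20 in gut (n = 6 each). The groups overlapped, and the gut to liver difference of -0.722 points had an exact permutation p of 0.241 (adjusted 0.524). On leaving out a library it ran from -1.08 without STAT3ko gut replicate 2 to -0.368 without STAT3ko gut replicate 1, and it was -0.508 without WT gut replicate 1 and -0.475 without WT liver replicate 1. Whether the gut to liver difference differs between CD4 and CD8 was not tested, since the tables were made separately.

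**Figure D2:**
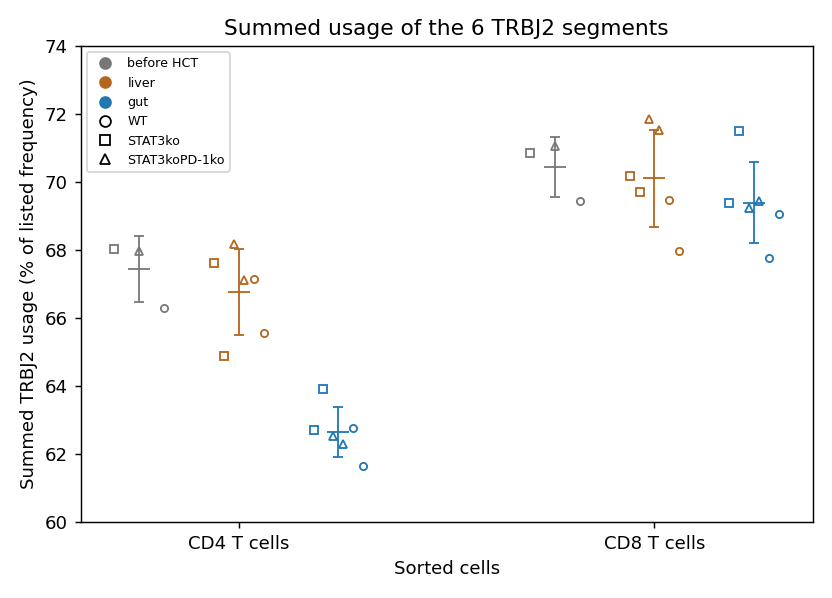
Summed usage of the 6 TRBJ2 segments (y axis, percent of listed frequency, axis from 60 to 74) by site and genotype, with points for libraries and bars for the mean and SD. In CD4 T cells the 6 gut libraries lie between 61.7% and 63.9%, below all libraries from liver and before HCT, while the CD8 groups overlap.

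Among single segments in CD4 T cells, limma called 6 of 12 TRBJ segments between gut and liver (50.0% of those tested), of which 2 were lower in gut (16.7%). One of the 6 TRBJ2 segments was among them, TRBJ2-5, against 5 of 6 TRBJ1 segments, 4 of which rose and 1 fell. TRBJ2-5 ranged from 11.9% to 14.9% in the liver libraries, with a median of 12.8%, and from 10.1% to 12.3% in gut, with a median of 10.9%. The highest gut library, STAT3koPD-1ko replicate 1, lay above the lowest liver library, WT replicate 2, so the groups overlapped. The difference was -0.24 ± 0.064 on the log2(percent + 0.1) scale (SE, n = 12 libraries), a fold of 0.846, with an adjusted p of 0.00769 by limma. Against the cells before HCT, where it was at 13.1%, 13.5% and 14.2%, TRBJ2-5 in gut was lower by -0.31 ± 0.077 (limma adjusted p = 0.00246). It was the one TRBJ2 segment among 4 of 12 called there (33.3%). This call too was lost with CDR3 from C to F or W only (-0.17, adjusted p = 0.124) and without TRBV26 and TRBV23 (-0.17, adjusted p = 0.150), and in the latter 0 of 12 were called. Between gut and the cells before HCT with all clonotypes, TRBJ2-7 differed by -0.13 ± 0.075 (SE, limma adjusted p = 0.153) and passed in 5 of 27 alternatives, with adjusted p down to 0.00324 without clonotypes above 0.1% of a library and 0.0446 without STAT3ko gut replicate 2. TRBJ2-1 differed by -0.14 ± 0.079 (adjusted p = 0.153) and passed in 1 (0.0177), the percentage of all reads, which is also among the 5 for TRBJ2-7 and put all 6 members between -0.84 and -0.49. Between liver and the cells before HCT limma called 0 of 12 (0.0%). The 6 members lay there between -0.07 and 0.05 (smallest adjusted p = 0.937).

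Between gut and liver TRBJ2-1 and TRBJ2-7 did not pass the test with all clonotypes and libraries as a percentage of listed frequency, and passed in 2 and 4 of 28 alternatives. The percentage of all reads is among these, a scale that put all 6 members between -0.74 and -0.46, since the gut libraries numbered 2 listed the least of their reads, and that therefore sets no member apart. TRBJ2-1 was at 9.47% ± 0.376 in liver and 8.76% ± 0.849 in gut (SD, n = 6), a log2 difference of -0.12 ± 0.068 (SE, limma adjusted p = 0.163). The lower mean lay in the gut libraries numbered 2, at 8.03% ± 0.446, against 9.49% ± 0.131 in those numbered 1 (n = 3 each), and the difference was 0.0038 without the former. It was -0.23 (adjusted p = 0.0384) without a TRBV21 entry of germline TRBJ2-1 bases alone, printed with the clonotypes. TRBJ2-7 was at 18.2% ± 0.960 and 16.9% ± 1.44, a log2 difference of -0.11 ± 0.065 (limma adjusted p = 0.163), which passed without STAT3ko gut replicate 2 (-0.15, adjusted p = 0.0358), without all gut libraries numbered 2 (-0.20, 0.0279) and without clonotypes above 0.1% of a library (-0.17, 0.00438). The means of TRBJ2-2, TRBJ2-3 and TRBJ2-4 in liver and gut lay within 1 SD of each other: 6.45% ± 0.434 and 6.35% ± 0.651 for TRBJ2-2, 9.43% ± 0.600 and 9.65% ± 0.233 for TRBJ2-3, and 10.2% ± 0.360 and 10.02% ± 0.771 for TRBJ2-4. Over the 6 members the median log2 difference was -0.07, against 0.18 over the 6 TRBJ1 segments and -0.02 over all 12.

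The TRBJ2-5 result moved with the V segments and with the form of the CDR3. TRBV26, which made up 9.09% ± 1.83 of CD4 liver and 25.4% ± 1.76 of CD4 gut (SD, n = 6), and TRBV23, at 3.70% ± 0.750 and 10.6% ± 2.39, were both higher in gut. Without these V segments the TRBJ2-5 difference was -0.15 (limma adjusted p = 0.202) and 0 of 12 J segments were called. CDR3 that run from C to F or W made up between 87.1% and 92.3% of CD4 liver libraries and between 71.2% and 75.5% of CD4 gut libraries, and among these CDR3 alone the difference was -0.14 (limma adjusted p = 0.120). With each clonotype counted once it was -0.02 (adjusted p = 0.639), and without the liver libraries numbered 1 it was -0.26 (adjusted p = 0.0664). The part of V usage and CDR3 form in the result was not tested further.

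In CD8 T cells no J segment passed between gut and liver (0 of 12, 0.0%, by limma; 2 of 12, or 16.7%, at an unadjusted p under 0.05, neither a TRBJ2 segment). As a percentage of all reads, of which the gut libraries numbered 2 listed the least, all 6 members lay between -0.60 and -0.36, and TRBJ2-3, the lowest, passed at -0.60 (adjusted p = 0.0302), against -0.16 (adjusted p = 0.216) as a percentage of listed frequency. Between gut and the cells before HCT, limma called 4 of 12 (33.3%), of which TRBJ2-3 was the one member. TRBJ2-3 was at 6.80%, 8.37% and 9.51% before HCT. In gut its lowest, median and highest libraries were 6.12%, 6.41% and 7.76%, overlapping the lowest of the libraries before HCT. The log2 difference was -0.29 ± 0.10 (SE, adjusted p = 0.0477). The call held in 14 of 27 alternatives. It was lost without the gut libraries numbered 2 (adjusted p = 0.164), without the liver libraries numbered 1 (0.0721), with each clonotype counted once (0.324), without clonotypes above 0.1% of a library (0.158) and with clonotypes of at least 3 libraries (0.0703). It was also lost on leaving out WT or STAT3koPD-1ko before HCT, STAT3koPD-1ko liver replicate 1 or 2, WT gut replicate 1 or 2, STAT3ko gut replicate 2 or STAT3koPD-1ko gut replicate 2, where the adjusted p lay between 0.0551 and 0.209. TRBJ2-4 was at 6.53% ± 0.733 before HCT (n = 3) and 7.55% ± 0.731 in gut (n = 6), a log2 difference of 0.21 ± 0.080 (adjusted p = 0.0510). On leaving out a library it ran from 0.10 without STAT3ko before HCT (adjusted p = 0.368) to 0.30 without STAT3koPD-1ko before HCT (0.0164), and it passed also without STAT3koPD-1ko gut replicate 2 (0.0365). It passed in 5 of 27 alternatives, the other 3 with adjusted p from 0.0465 to 0.0494. Between liver and the cells before HCT limma called 0 of 12 (0.0%). The 6 members lay there between -0.13 and 0.14 (smallest adjusted p = 0.378).

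**Figure D3:**
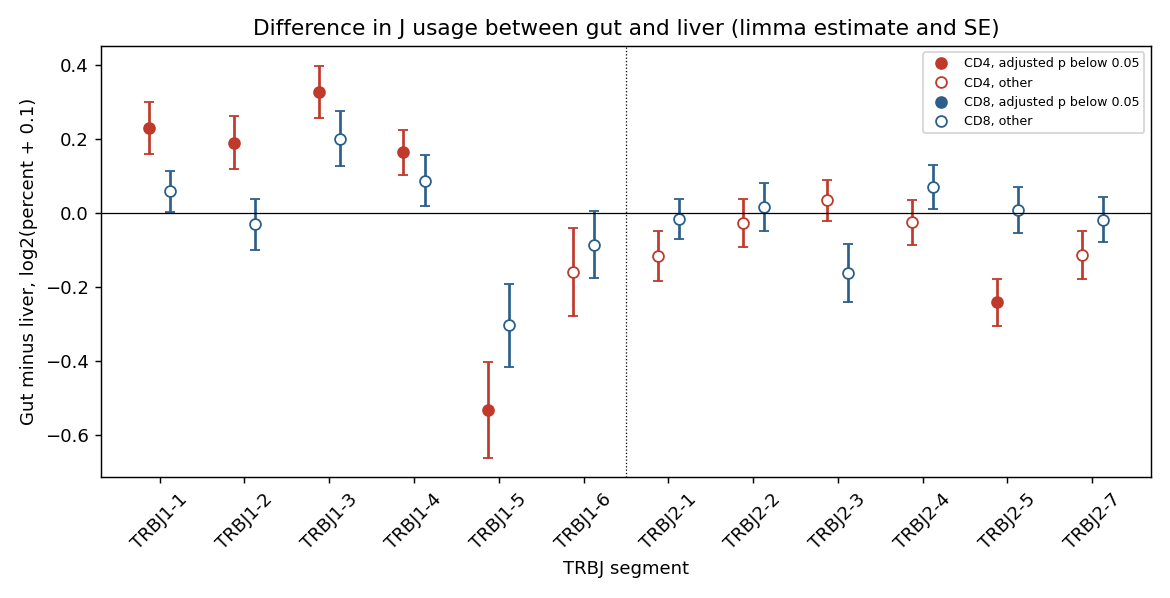
Difference between gut and liver on the log2(percent + 0.1) scale (y axis) for the 12 TRBJ segments, as limma estimate and SE over 12 libraries, in CD4 and CD8 T cells. Filled points passed an adjusted p of 0.05. TRBJ2-5 in CD4 at -0.24 is the one filled point among the TRBJ2 segments, to the right of the dotted line.

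The comparisons that address the donor genotype called no J segment in either table. For STAT3ko against WT, limma called 0 of 12 in CD4 (0.0%; 0 at an unadjusted p under 0.05) and 0 of 12 in CD8 (0.0%; 2, or 16.7%, unadjusted, of which 1 was a TRBJ2 segment). For STAT3koPD-1ko against STAT3ko it called 0 of 12 in CD4 (0.0%; 0 unadjusted) and 0 of 12 in CD8 (0.0%; 1, or 8.33%, unadjusted, no TRBJ2 segment). The log2 differences of the 6 members for STAT3ko against WT ran from -0.07 to 0.16 in CD4 and from -0.02 to 0.22 in CD8. For STAT3koPD-1ko against STAT3ko they ran from -0.08 to 0.10 in CD4 and from -0.12 to 0.11 in CD8. Summed usage was 68.6% ± 0.821 in WT, 70.2% ± 0.933 in STAT3ko and 70.5% ± 1.36 in STAT3koPD-1ko CD8 day 6 libraries (SD, n = 4 each). The STAT3ko to WT difference of 1.62 points had an exact permutation p of 0.0556, the smallest that 36 arrangements allow, so this design could not pass 0.05. No difference between gut and liver in the genotype effect on a member passed (24 interaction terms in limma, smallest adjusted p = 0.789).

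The member with the largest STAT3ko to WT difference was TRBJ2-4 in CD8 T cells. It was at 6.37%, 6.75%, 7.25% and 6.85% in the 4 WT day 6 libraries and at 7.13%, 8.18%, 7.80% and 8.81% in the 4 STAT3ko libraries. The log2 difference was 0.22 ± 0.073 (SE, limma adjusted p = 0.0933), which did not pass. Without STAT3ko liver replicate 1 it was 0.27 (adjusted p = 0.0331). The highest value, in STAT3ko gut replicate 2, held a single clonotype at 3.08% of listed frequency, with TRBV13-3, without which TRBJ2-4 there was 5.91% in place of 8.81%. With each clonotype counted once, the STAT3ko to WT difference was -0.000291.

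V segments differed in how much of their frequency was joined to TRBJ2. Among the V segments that made up 1% or more of CD4 T cells on average, the share was lowest in TRBV1, at 55.2% ± 6.65 (SD, n = 15), TRBV26 at 58.1% ± 3.40 and TRBV2 at 63.4% ± 11.6. It was highest in TRBV12-2 at 77.1% ± 7.84, TRBV12-1 at 75.9% ± 3.33 and TRBV29 at 71.9% ± 6.28. TRBV5 was at 64.0% ± 6.18 and TRBV23 at 66.4% ± 4.98. In CD8 T cells the lowest were TRBV13-1 at 62.4% ± 4.64, TRBV29 at 62.5% ± 3.07 and TRBV26 at 63.8% ± 7.06, and the highest TRBV12-2 at 79.3% ± 3.20, TRBV4 at 78.6% ± 3.46 and TRBV17 at 78.4% ± 3.54. TRBV1 was at 64.5% ± 6.50 and TRBV5 at 66.4% ± 4.73 in CD8. Over all libraries TRBV12-2 was thus the highest of these in both tables, while TRBV29 was among the 3 highest in CD4 and the 3 lowest in CD8. The same held in liver alone but not in gut alone. There TRBV12-2 was at 71.8% ± 9.54 in CD4, below TRBV12-1 at 77.9% ± 2.90. In CD8 gut it was at 76.7% ± 2.14, below TRBV17 at 78.6% ± 4.73. TRBV29 in gut was at 69.0% ± 7.72 in CD4 and 62.5% ± 3.13 in CD8, outside the 3 in both.

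The members did not follow a V segment's total evenly. In CD4 T cells TRBJ2-5 took 24.0% ± 6.54 of TRBV12-2 and 22.1% ± 7.52 of TRBV29 but 8.36% ± 1.06 of TRBV26 (SD, n = 15). TRBJ2-7 took 16.2% ± 6.90, 19.4% ± 5.91 and 15.1% ± 1.65 of the same V segments. TRBV15, at 8.06% ± 1.43, and TRBV20, at 7.81% ± 3.30, were chosen after their values were seen, as V segments that held no more TRBJ2-5 than TRBV26. In TRBV23 it was at 12.6% ± 2.58, close to its overall mean.

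Of the V segments that made up 0.5% or more on average, limma called the TRBJ2 share of 1 of 21 in CD4 between gut and liver (4.76%; 4, or 19.0%, at an unadjusted p under 0.05), TRBV5. It was at 67.0% ± 3.98 in liver and 58.0% ± 2.78 in gut (SD, n = 6), ranging from 62.1% to 71.7% and from 54.8% to 60.7% with no overlap, a difference of -9.04 ± 2.25 points (SE, adjusted p = 0.0488). The call was lost without the gut libraries numbered 2 (adjusted p = 0.151) and on leaving out any 1 day 6 library other than WT or STAT3ko liver replicate 2, where the adjusted p lay between 0.0590 and 0.148. Without STAT3ko liver replicate 2 it was 0.0256. The TRBJ2 share of TRBV26 fell short of the threshold, with 59.2% ± 1.88 in liver and 54.7% ± 1.20 in gut and no overlap (adjusted p = 0.0742), and TRBV1 at 58.6% ± 3.76 and 49.9% ± 6.97 (adjusted p = 0.144). TRBV23, at 65.9% ± 3.84 and 65.4% ± 5.18, differed by less than its spread. Of the 21 V segments, 14 had the lower mean in gut. In CD8 T cells 0 of 18 passed by limma (0.0%; 3, or 16.7%, at an unadjusted p under 0.05). TRBV26 had 69.0% ± 2.48 in liver and 60.6% ± 6.60 in gut (adjusted p = 0.0801), and on leaving out a library the adjusted p ran from 0.0147 without STAT3ko gut replicate 1 to 0.227 without STAT3koPD-1ko gut replicate 2, passing also without STAT3ko liver replicate 1 (0.0375).

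The gut to liver difference in summed usage can be divided by arithmetic into a term for V usage and a term for the TRBJ2 share within V segments. In CD4 T cells these were -1.02 and -3.10 points of -4.12, and in CD8 T cells 0.450 and -1.20 points of -0.755, computed from the mean V usage and the mean share within each V over 6 libraries per tissue. Without TRBV26 and TRBV23 clonotypes the CD4 difference in summed usage was -2.23 points. Of single V-J pairs, limma called 0 of 252 in CD4 (0.0%; 15, or 5.95%, at an unadjusted p under 0.05) and 0 in CD8 (0.0%; 13, or 6.02%, unadjusted).

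**Figure D4:**
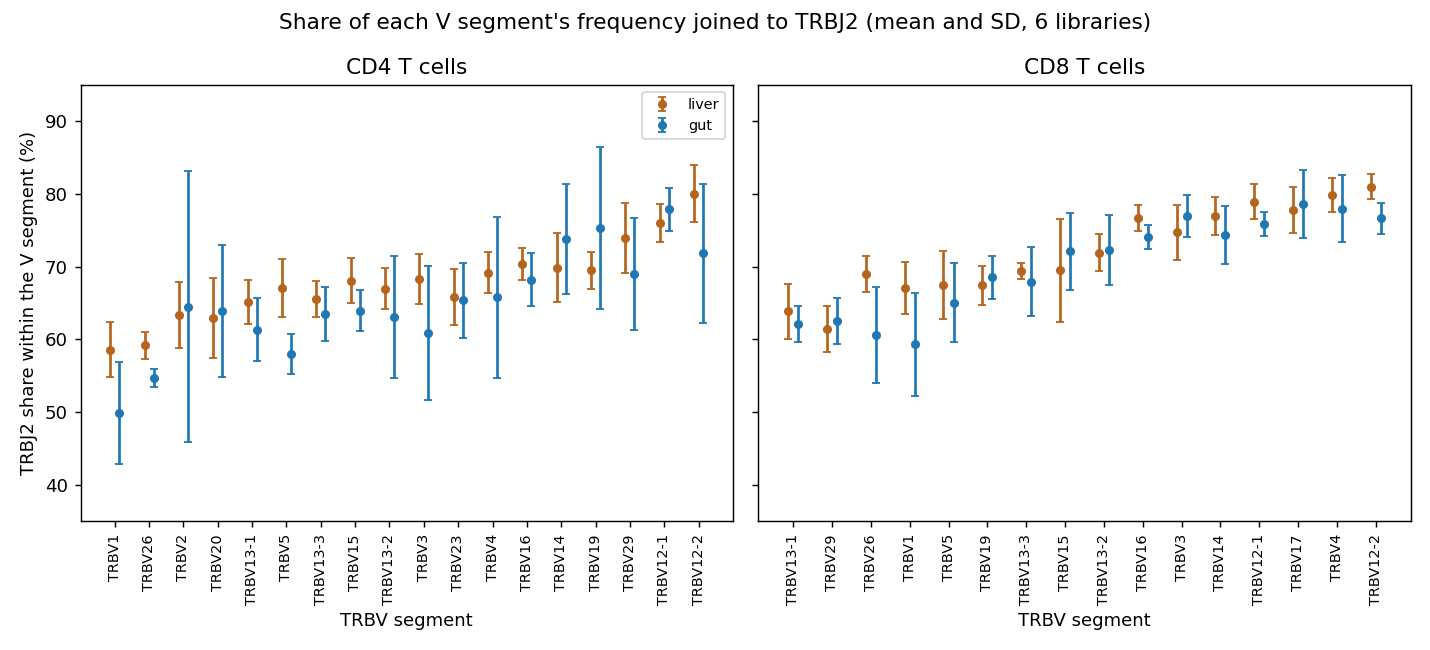
Share of each V segment's frequency that was joined to a TRBJ2 segment (y axis, percent, axis from 35 to 95) in liver and gut, as mean and SD of 6 libraries, for V segments of 1% or more on average, ordered by their mean share. TRBV5 in CD4 T cells, at 67.0% in liver and 58.0% in gut, was the one called, and TRBV12-2 is at the right end in both tables.

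The members also left different marks on the CDR3. Counting from the closing codon, the TRBJ2-3 CDR3 lacked the fewest germline bases, 1.52 ± 0.173 on average in CD4 and 1.58 ± 0.293 in CD8 (SD over 15 libraries, weighted by frequency, CDR3 from C to F or W). TRBJ2-7 lacked the most, 3.37 ± 0.180 in CD4 and 3.99 ± 0.121 in CD8, followed by TRBJ2-1 at 3.29 ± 0.330 and 3.37 ± 0.176. The whole germline end was kept in 44.3% of TRBJ2-3 frequency but in 10.98% of TRBJ2-1 in CD4, and in 43.7% and 11.6% in CD8. TRBJ2-7, the shortest segment, gave the shortest CDR3, with a mean of 13.2 ± 0.0886 residues in CD4 and 12.7 ± 0.0913 in CD8. TRBJ2-2 was at 14.3 ± 0.154 and 14.2 ± 0.210 residues and TRBJ2-3 at 14.2 ± 0.125 and 14.2 ± 0.146, within their spread of each other. A mismatch ends the count and an added base can match by chance, so the losses are approximate.

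TRBD2 was called in 43.4% of TRBJ2 clonotypes in CD4 and 43.3% in CD8, against 17.4% and 8.66% of TRBJ1 clonotypes. Deletion cannot join TRBD2 to TRBJ1, so some D calls are in doubt, those of TRBJ2 clonotypes included. By frequency it was lowest in TRBJ2-2, at 27.6% ± 3.80 in CD4 and 26.3% ± 4.75 in CD8 (SD, n = 15), while the other 5 members had between 36.4% and 39.7% in CD4 and between 34.9% and 41.7% in CD8.

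The J segments of clonotypes differed with the number of libraries that listed them. Of 49625 CD8 clonotypes found in 1 or 2 of the 15 libraries, 66.4% used TRBJ2 and 20.3% TRBJ2-7. Of 189 found in all 15, 78.3% used TRBJ2 and 47.6% TRBJ2-7, with TRBJ2-2 at 0.529% against 5.88% and TRBJ2-3 at 1.59% against 7.66%. In CD4 T cells the TRBJ2 share was 63.1% of 54943 clonotypes in 1 or 2 libraries, 61.5% of 1339 in 10 to 14 and 61.7% of the 60 in all 15. TRBJ2-7 was at 16.1%, 21.0% and 16.7% in these classes and TRBJ2-2 at 6.92%, 5.23% and 3.33%, while TRBJ2-1 was at 9.79% in the first and 4.63% in the second. Both tables thus held more TRBJ2-7 in the class of 10 to 14 libraries than in that of 1 or 2, with 31.3% in CD8. Libraries share clonotypes, some pairs of a genotype far more than others, so the 15 are not independent and no test was made. Weighted by frequency, summed TRBJ2 usage was higher than its share of clonotypes in 14 of 15 CD4 and 15 of 15 CD8 libraries, by 1.87 ± 1.47 and 2.15 ± 0.828 points.

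**Figure D5:**
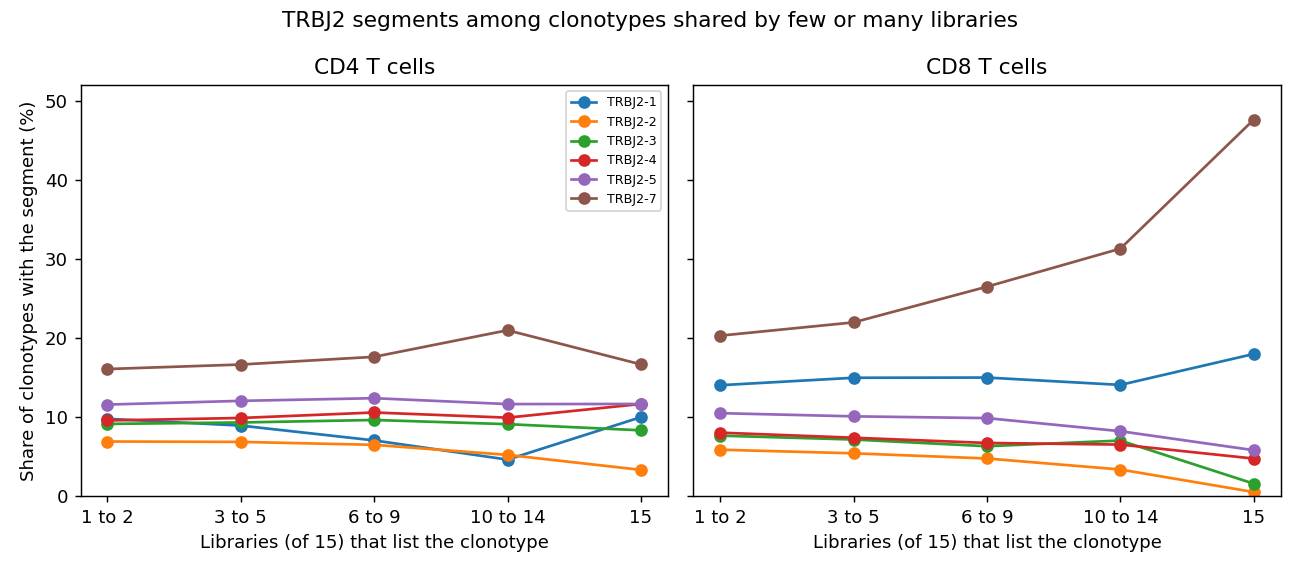
Share of clonotypes that use each TRBJ2 segment (y axis, percent) among clonotypes listed in 1 to 2, 3 to 5, 6 to 9, 10 to 14 or all 15 libraries, in CD4 (left) and CD8 (right) T cells. In CD8 T cells TRBJ2-7 goes from 20.3% of clonotypes in 1 or 2 libraries to 47.6% of those in all 15, and in CD4 T cells from 16.1% to 21.0% of those in 10 to 14 and 16.7% of the 60 in all 15.

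Some widely shared clonotypes show how the segments are read. Each is the most abundant clonotype of its member among those listed in at least 12 libraries, with the bases that match the germline J in capitals. The bases are those listed for the clonotype and are not known for each library.
TRBJ2-1, CD4 and CD8: TATGCTGAGCAGTTCTTC
TRBJ2-5, CD4: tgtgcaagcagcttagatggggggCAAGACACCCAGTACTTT
TRBJ2-7, CD8: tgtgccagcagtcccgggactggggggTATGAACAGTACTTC
TRBJ2-3, CD8: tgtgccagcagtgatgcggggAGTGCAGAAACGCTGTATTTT
The TRBJ2-1 entry, with a TRBV21 call and no D call, consists of germline TRBJ2-1 bases alone. It holds no V or D bases, so it may not be a rearranged clonotype, and TRBJ2-1 usage and the clonotypes counted in all 15 libraries include it. It was listed in all 15 libraries of both tables, at 0.507% of reads on average in CD4, from 0.331% to 0.760%, and at 0.262% in CD8, from 0.210% to 0.323%. In CD4 it was at 0.415% ± 0.0543 in liver and 0.653% ± 0.121 in gut (SD, n = 6). It held 6.67% of TRBJ2-1 frequency in CD4 and 1.93% in CD8. Without it, TRBJ2-5 kept its call in CD4 between gut and liver (adjusted p = 0.0111).

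The TRBJ2-5 clonotype, with TRBV16, was at 0.133% ± 0.0442 of reads before HCT (SD, n = 3), 0.0906% ± 0.0384 in liver and 0.0577% ± 0.0570 in gut (n = 6 each). The TRBJ2-7 clonotype, with TRBV19, was listed in all 15 CD8 libraries, at 0.0353% to 0.199%. The TRBJ2-3 clonotype, with TRBV13-1, ranged from 0.00439% to 0.325% in CD8, and its highest value was in STAT3ko before HCT. Other than the TRBJ2-1 entry, each of these held under 1% of its segment's frequency in its table. The effective number of clonotypes of a member, the exponential of its Shannon entropy, had a median over libraries between 314 for TRBJ2-2 and 834 for TRBJ2-7 in CD4, and between 290.1 for TRBJ2-2 and 1256 for TRBJ2-7 in CD8.

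Across the 15 libraries, the segment whose log2 usage was most like that of TRBJ2-5 in CD4 was TRBV2 (Pearson's r = 0.89), and TRBV26 was the least like it (r = -0.82). TRBJ2-1 in CD4 was most like TRBJ1-5 (r = 0.80), and TRBJ2-7 most like TRBV16 (r = 0.75). In CD8, TRBJ2-3 was most like TRBV2 (r = 0.74) and TRBJ2-4 most like TRBJ1-4 (r = 0.72). For TRBJ2-2 the nearest segment was TRBV15 in CD4 (r = 0.63) and TRBJ2-4 in CD8 (r = 0.68). These are descriptions over libraries that fall into 3 sites and share clonotypes, of percentages that share a total.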

How the data were processed

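TCR libraries were made by the authors from RNA of sorted donor T cells with a commercial template-switching kit and sequenced as paired reads. The authors called clonotypes with MiXCR and joined them with VDJtools into 1 table for each chain and cell type. Each table lists a single set of V, D and J calls and bases per clonotype. The deposited values are clonotype fractions of a library's reads, formed before a join that kept clonotypes of 2 or more among 18 libraries, of which 15 per table were analysed here. A deposited column with the number of libraries per clonotype served for checks only. Of the 4 tables, the 2 TCRB tables were used.

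Fractions were summed by J segment and divided by the library's listed sum. For TRBJ segments above 0.5% on average, limma 3.58.1 (R 4.3.3) was fitted to log2(percent + 0.1), with terms for tissue and genotype over the 12 day 6 libraries, or for site and genotype over all 15. P-values were adjusted by the Benjamini-Hochberg method within table and contrast, at a threshold of 0.05. TRBJ2 shares within V segments were tested as percentages and V-J pairs as log2(percent of V + 1). Summed usage was compared by exact two-sided permutation tests, adjusted over 10 tests. The fits were tested on simulated data. Members, lists and tests were chosen with earlier results of these data known. V segments named are the 3 lowest and 3 highest TRBJ2 shares per table, and TRBV1, TRBV26, TRBV23 and TRBV5; TRBV31, also in the rule, was not analysed here, and TRBV15 and TRBV20 were added after their values were seen. Clonotypes named are the most abundant of a member in at least 12 libraries. Alternatives covered pseudocount, filter, weighting, denominator, CDR3 form, V composition, large clonotypes, replicate block and libraries left out. Python 3.11.15 with numpy 2.4.6 and pandas 2.3.3 was used for the rest. The fractions give no read depth and no counting intervals, and errors are SDs or limma SEs over libraries.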

Additional observations from a re-analysis of the deposited data

Results flagged for a closer look

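A single value stood apart from its group. TRBJ2-7 was at 16.5% of listed frequency in CD4 liver of STAT3koPD-1ko replicate 2, against 18.1% to 19.0% in the other 5 liver libraries, a gap of 0.638 of the group's range, above Dixon's 95% critical value for 6 samples. Of 28 groups of 6 libraries looked at, 1 passed this limit, and chance gives about 1 in 20.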

How the results depend on the processing

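Summed TRBJ2 usage in CD4 kept its lower gut mean in all alternatives run, from -4.68 to -1.30 points against liver and from -5.37 to -2.29 against the cells before HCT. None passed the adjusted threshold, which also needed small p in other tests of summed usage. The 6 J segments called between CD4 gut and liver became 0 with each clonotype counted once, with CDR3 from C to F or W only and without TRBV26 and TRBV23, and 2 without the liver libraries numbered 1; leaving out a library each gave 4 to 7. For CD4 gut against before HCT, 4 became 0 without TRBV26 and TRBV23 and 7 without clonotypes above 0.1%, with 4 to 6 on leaving out a library. The count for CD8 gut against before HCT, 4, became 0 with each clonotype counted once, without clonotypes above 0.1% and without the liver libraries numbered 1, and 2 with clonotypes of at least 3 libraries, with 0 to 4 on leaving out a library; it was 0 without WT before HCT. CD8 gut against liver rose from 0 to 1 without clonotypes above 0.1% and to 2 as a percentage of all reads, with 0 to 1 on leaving out a library. CD8 STAT3koPD-1ko against STAT3ko rose from 0 to 1 with a pseudocount of 1 and without the gut libraries numbered 2, with 0 to 1 on leaving out a library, as did STAT3ko against WT, 0 to 1. The V segment call in CD4 was lost (0) with V segments of at least 0.1%, each clonotype once, CDR3 from C to F or W, without clonotypes above 0.1%, without the germline-only TRBV21 clonotype and without the gut libraries numbered 2, and became 2 with clonotypes of at least 3 libraries, with 0 to 1 on leaving out a library, and 0 to 2 in CD8. The alternative without the germline-only TRBV21 clonotype was chosen after seeing the data. The cause of these changes was not tested.

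The replicate numbers are not tied by the labels or methods to the 2 batches the methods mention, and the deviations of same-numbered libraries had correlations from -0.680 to 0.667 in CD4 and from -0.390 to 0.805 in CD8 over 15 pairs of groups, so the number was not taken as a pairing. With the replicate block the CD4 gut to liver count stayed at 6, the V segment count became 3, and CD8 gut against liver and STAT3koPD-1ko against STAT3ko became 1 each. Under the block the summed usage in CD4 gave an adjusted p of 0.156 by exact permutation for gut against liver, from the smallest p that the block allows.

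Signs changed as follows. The STAT3ko to WT difference in summed CD4 usage was -0.0712 points without the gut libraries numbered 2 and -0.649 without clonotypes above 0.1%, and -0.184 to 1.19 on leaving out a library. STAT3koPD-1ko against STAT3ko in CD4 was -0.241 with each clonotype once, -0.0902 with CDR3 from C to F or W and -0.0508 without TRBV26 and TRBV23, and -0.432 to 0.942 on leaving out a library. In CD8 it was -0.499 with each clonotype once and -0.204 to 0.858 on leaving out a library, and liver against before HCT was 0.473 without clonotypes above 0.1% and -0.834 to 0.0953 on leaving out a library. On the log2 scale TRBJ2-1 in CD4 gut against liver was 0.0038 without the gut libraries numbered 2. TRBJ2-4 in CD8 gut against liver was -0.062 with clonotypes of at least 3 libraries and -0.00105 without clonotypes above 0.1%. As a percentage of all reads it was -0.36, and -0.27 against before HCT, but that scale lowered all 6 members in gut alike (from -0.60 to -0.36 and from -0.77 to -0.27), so these signs say nothing of TRBJ2-4. TRBJ2-4 for STAT3ko against WT was -0.000291 with each clonotype once. The TRBJ2 share of TRBV23 in CD4 was 0.718 points with each clonotype once and 0.521 with clonotypes of at least 3 libraries, and -2.62 to 0.655 on leaving out a library. For the other 14 differences of single members between gut and liver or before HCT, the sign changed in 44 of 385 alternatives and 8 passed, the percentage of all reads included. Signs of members also changed in the genotype contrasts, in up to 6 of 28 alternatives (TRBJ2-3, CD4, STAT3koPD-1ko against STAT3ko). Between liver and the cells before HCT they changed in up to 7 of 27 (TRBJ2-3 and TRBJ2-4, CD4). No member was called in these contrasts with all clonotypes and libraries.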
